A study of Gallus gallus with 5 samples.

Results

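Genes of the molecular motors were followed in DT40, a lymphoma line of chicken B cells, as kinesins, dynein with its cofactor dynactin, and myosins. Members were the genes whose chicken symbol begins with KIF followed by a digit, C or A, with DYNC, DYNL or DCTN, or with MYO followed by a digit. Of 88 chicken symbols in the reference that match, 52 had a row in the count files, among 16143 features in all, and 41 of the 52 had enough counts to be tested. The 52 are 10 mitotic kinesins, 18 other kinesins, 11 genes of dynein and dynactin and 13 myosins. Matching genes with no row, not analysed here, include DYNC1H1 and DCTN1, which encode the largest chains of dynein and dynactin, as well as KIF15, KIF20B, KIFAP3, MYO9B and MYO10.

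The study altered CAP-H, a subunit of condensin I, which compacts chromosomes for division. Both groups carry the CAP-H knockout of the labels. The 2 +dox libraries (replicates 1 and 3, labelled CAP-H off) came from cells given 100 ng/ml doxycycline for 36 h, and the 3 -dox libraries (replicates 1, 2 and 3, labelled CAP-H on) from cells without it. An effect of doxycycline itself and an effect of losing CAP-H cannot be told apart in this design, nor, in these bulk samples, can fewer cells of a type and less RNA per cell. The labels do not say how doxycycline acts on the gene, how many clones were used or whether replicates were separate cultures. The p-values therefore rest on the spread of these libraries alone, which may be technical.

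The +dox libraries held 13501033 and 12199522 counts, and the -dox libraries between 12311777 and 22533003. No row (0) matched NCAPH, the gene of CAP-H, so the labels were not checked by the targeted gene. An RNA without a symbol, XR_140315.1, held 185556 and 175268 counts in the +dox libraries, against 208 to 406 in the -dox libraries. It was not identified with NCAPH here. If it were the NCAPH transcript, its level would go against the labels CAP-H off and CAP-H on. Each fold change is therefore given as +dox over -dox, without a statement on the state of CAP-H. The treatment is known from the same labels, so if libraries had been exchanged every sign here would turn too. Whether they were was not tested. All 9 B-cell markers with a row were detected, at a summed 1184 to 1231 CPM in the +dox libraries and 1495 to 1542 CPM in the -dox libraries. Of these markers 5 fell and 1 rose, where 23.7% of all 10079 features tested fell and 22.6% rose. Of 5 T-cell markers with a row CD3D was present, at a mean of 99.7 CPM with and 91.7 CPM without doxycycline, while CD8A stood at 2.74 CPM with and 2.86 CPM without and CD3E, CD4 and CD28 had at most 6 counts in a library, apart from 29 counts of CD4 in +dox replicate 3. Fibroblast markers summed to 32.7 to 35.0 CPM with and 30.6 to 35.8 CPM without doxycycline, and striated muscle markers to under 1 CPM in each library.

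Motor proteins turn ATP into movement along the cytoskeleton. Kinesins mostly walk towards the plus ends of microtubules, and a subset builds the spindle, moves chromosomes and finishes cytokinesis, while others carry organelles, mRNAs or ciliary cargo. Cytoplasmic dynein walks to the minus ends with the help of dynactin. Myosins move on actin, and the single-headed class I myosins of blood cells link actin to the plasma membrane and to endosomes. RNA levels are in CPM, the count in each library relative to its TMM-scaled total. Each log2 fold change is +dox over -dox. The quasi-likelihood test of edgeR gave the adjusted p-values (Benjamini-Hochberg, over 10079 features), with a threshold of 0.05.

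Across the 41 tested members, 16 fell and 8 rose in the +dox libraries, and 17 did not pass. That is 39.0% lower and 19.5% higher, against backgrounds of 23.7% lower and 22.6% higher among all 10079 features, where 46.3% changed in either direction. The median log2 fold change was -0.14 for the members and 0.00068 for all features. By class the split was 3 higher and 3 lower of 9 mitotic kinesins, 0 higher and 5 lower of 12 other kinesins, 3 higher and 3 lower of 11 dynein and dynactin genes, and 2 higher and 5 lower of 9 myosins. Falls of at least 2-fold were found in 2 members, MYO1F and MYO1C (2.69% of all features fell as far), and a rise of that size in 1, MYO1H (3.49% of all features rose as far). MYO1H is 1 of the 8 rises and passed the filter on low counts only through the +dox libraries, so neither count that holds it is support for a rise. The groups did not overlap in 33 of the 41 members (64.9% of all features), with the +dox libraries lower in 22 (32.9% of all features). MYO1H is also 1 of the 33, and for the same reason its separation is no support.

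**Figure D1:**
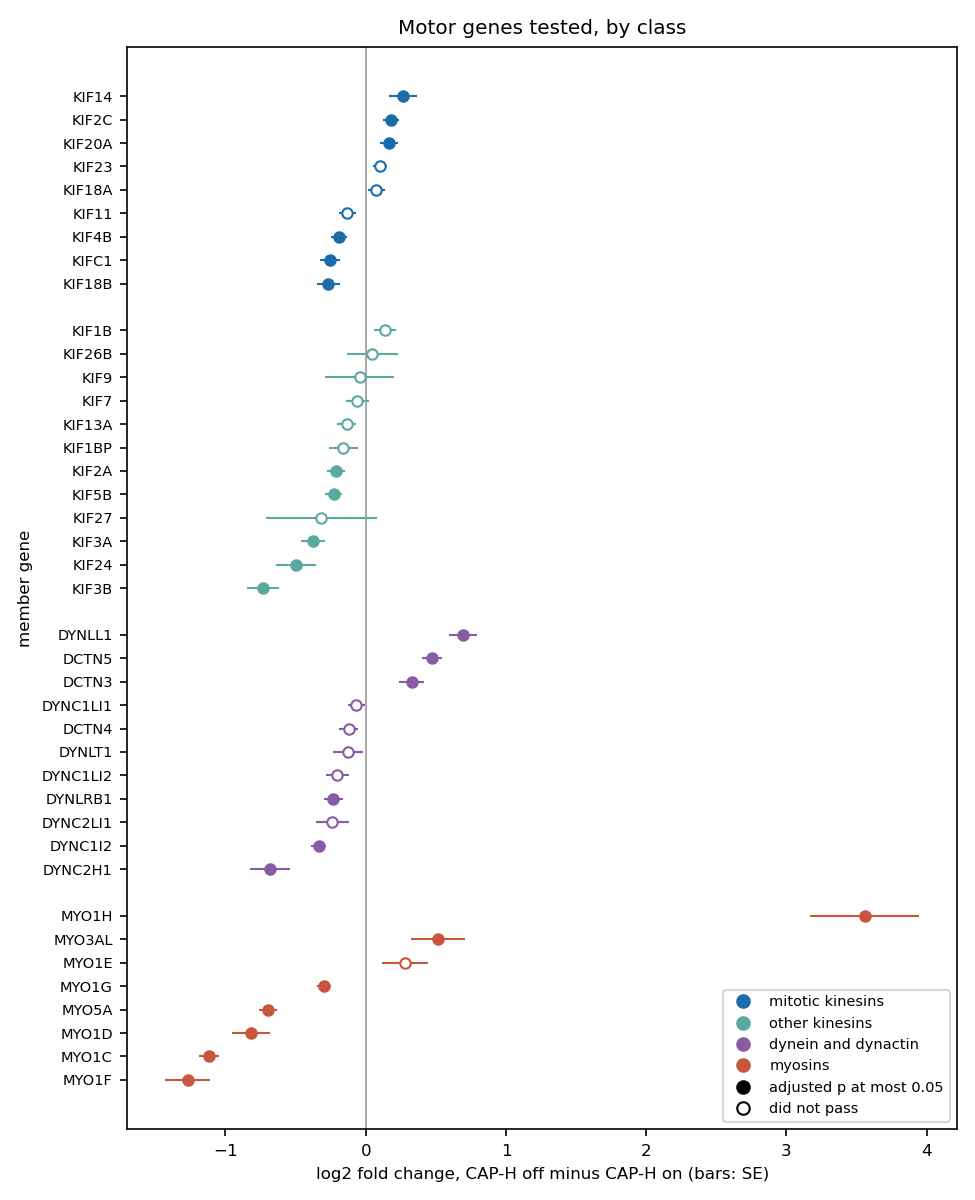
Log2 fold change (+dox over -dox, labelled CAP-H off and CAP-H on) of 40 of the 41 tested members by class, with bars for the SE and filled points for adjusted p at most 0.05. The mitotic kinesins lie between -0.27 and 0.27, and the myosins reach from -1.27 to 3.56, a highest value that belongs to MYO1H, which passed the filter on low counts only through the +dox libraries.

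Scaling mattered for the small changes. With library size as the only scaling, the median of all features shifted by -0.18 on the log2 scale. Then 25 of the 41 members were lower and 3 higher, and 4119 of all 10079 features were lower and 1272 higher. Changes are therefore relative to the typical feature. The 12 called members that kept direction and call under all 12 alternatives tried were the myosins MYO1C, MYO1D, MYO1F, MYO1G, MYO1H and MYO5A, the kinesins KIF3A and KIF3B, and DYNC1I2, DYNC2H1, DYNLL1 and DCTN5. For MYO1H the alternatives that keep the filter say nothing on stability, since it could enter them only by being higher with doxycycline. The count of higher members was 4 without -dox replicate 2 and 5 without -dox replicate 3. Among all features 2006 and 2171 were then higher, against 2281 with every library.

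**Figure D2:**
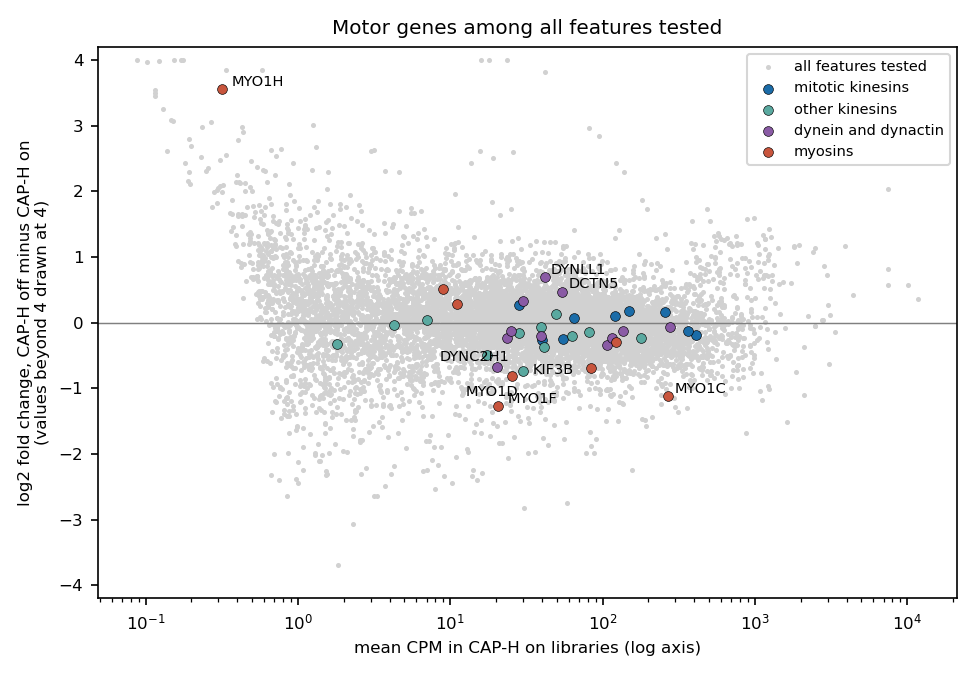
Log2 fold change against the mean CPM in -dox libraries (log axis) for all 10079 features tested in grey (values beyond 4 drawn at 4) and for 40 of the 41 tested members in the colours of their classes. MYO1C and MYO1F lie at -1.12 and -1.27, and MYO1H lies at 3.56 at a mean of 0.319 CPM.

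Of the 9 tested myosins 5 fell (55.6%, against 23.7% of all features), and these 5 include 4 of the 7 tested class I myosins and the class V gene MYO5A. MYO1C (galGal4 chromosome 19, 5202761 to 5253510), a class I myosin that works in membrane traffic and at the cell cortex, had 119 and 130.2 CPM in the +dox libraries, against 268, 278 and 266 CPM in the -dox libraries. Both +dox libraries lay below all 3 -dox libraries, and the log2 fold change was -1.12 (SE 0.07, adjusted p = 2.7e-09), a level 2.17-fold higher in the -dox libraries.

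MYO1F (chromosome 28, 1729376 to 1742501), a class I myosin of leukocytes, stood at 8.10 and 9.25 CPM with doxycycline and at 24.0, 19.9 and 18.2 CPM without doxycycline. The groups did not overlap and the log2 fold change was -1.27 (SE 0.16, adjusted p = 9.1e-06). The macrophage markers MPEG1 and CTSS moved with it, MPEG1 at a mean of 8.16 CPM with and 23.0 CPM without doxycycline and CTSS at 7.31 CPM with and 15.5 CPM without, and MARCO held 1 count in every library. The 3 macrophage markers with a row, of 5 listed, summed to 14.8 to 16.3 CPM in +dox libraries and 35.4 to 40.5 CPM in the -dox libraries, and their part in the MYO1F result was not tested.

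MYO1D (chromosome 27, 1430433 to 1500188), a class I myosin of endosomes and of left-right patterning, had 12.4 and 16.3 CPM in the +dox libraries, against 25.9, 23.4 and 26.6 CPM in the -dox libraries. The separation was complete, at -0.82 on the log2 scale (SE 0.14, adjusted p = 0.00013). MYO1G (chromosome 2, 4038407 to 4047227), a myosin of the lymphocyte plasma membrane, stood at 100.2 and 100.3 CPM with doxycycline and at 127, 121 and 122 CPM without doxycycline. This was a smaller fall, of -0.30 (SE 0.05, adjusted p = 0.00020), and the part in it of the B-cell markers, also lower with doxycycline, was not tested. MYO5A (chromosome 10, 8240551 to 8332114), which carries vesicles along actin, had 50.2 and 53.3 CPM with and 82.1, 87.8 and 81.3 CPM without doxycycline. Its libraries separated fully too, at -0.70 on the log2 scale (SE 0.07, adjusted p = 3.9e-07).

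MYO1H (chromosome 15, 6712285 to 6727249), a class I myosin of low abundance here, went the other way. Its counts were 46 and 42 in the +dox libraries, against 8, 4 and 4 in the -dox libraries. In CPM this is 3.88 and 3.92 with doxycycline and 0.353, 0.273 and 0.330 without, a log2 difference of 3.56 (SE 0.39). MYO1H passed the filter on low counts only through the +dox libraries (0 -dox libraries reached it), so it could enter the filtered test only by being higher there, and the p of that test is not given. In the edgeR test with no filter, which every feature enters, the difference was 3.46 (adjusted p = 2.5e-06). The -dox counts lie near the smallest deposited count of 1, so the size of the difference is uncertain. Its nearest measured neighbour, KCTD10, begins 2078 bases away and fell by 0.28 on the log2 scale (adjusted p = 0.0011).

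MYO3AL, a class III-like myosin gene, passed as higher, with a call that rested on single libraries. It had 15.9 and 9.53 CPM in the +dox libraries and 8.44, 9.42 and 9.08 CPM in the -dox libraries, so +dox replicate 3 lay next to the other group. The log2 fold change of 0.51 (SE 0.19, adjusted p = 0.039) became 0.09 (adjusted p = 0.79) without +dox replicate 1, and the call was also lost without -dox replicate 1 (0.46, adjusted p = 0.094), replicate 2 (0.55, adjusted p = 0.069) or replicate 3 (0.52, adjusted p = 0.051). Leaving out -dox replicate 2 or -dox replicate 3, each alone, left MYO1H as the 1 myosin higher, where 2006 and 2171 of all features were higher. MYO1H passed the filter on low counts only through the +dox libraries, so that count is no support for a rise. MYO1E, an endocytic myosin, had 13.6 and 13.9 CPM with and 13.4, 10.2 and 9.83 CPM without doxycycline (0.28, adjusted p = 0.17), and passed without -dox replicate 1 (0.46, adjusted p = 0.035). MYO1A, MYO6, MYO7A and MYO16 held 1 to 10 counts in every library and were not tested.

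**Figure D3:**
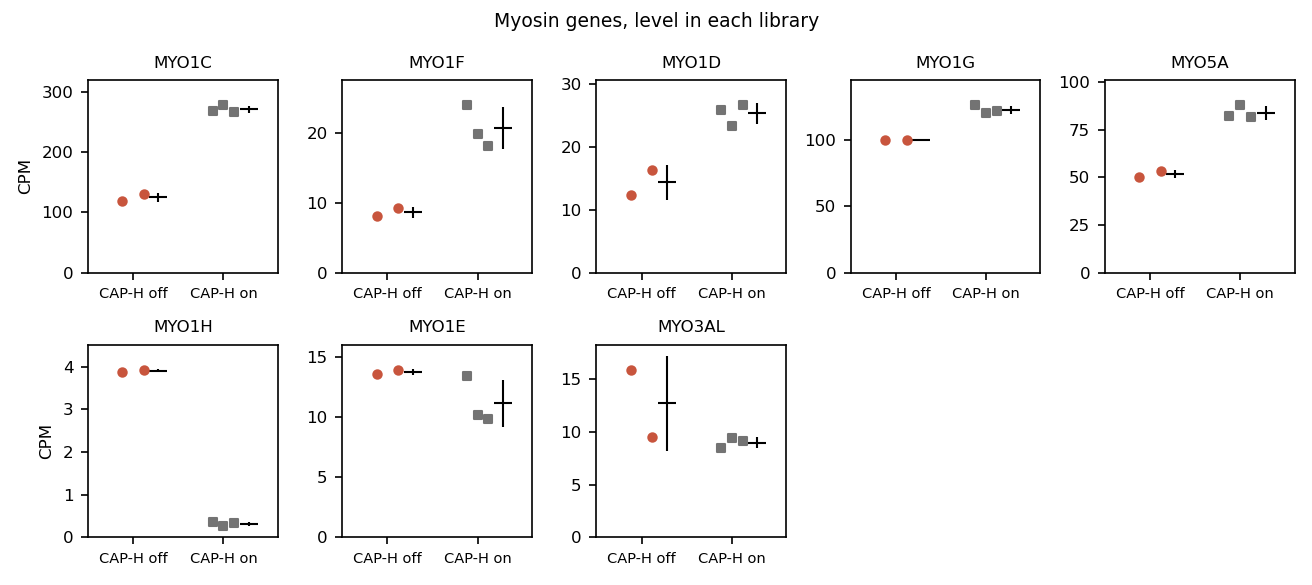
CPM of 8 of the 9 tested myosins in each library, with points for libraries and the bar at the right of each group for mean and SD (n = 2 with doxycycline, CAP-H off, n = 3 without, CAP-H on). The 5 genes MYO1C, MYO1F, MYO1D, MYO1G and MYO5A are lower in both +dox libraries, and MYO1H is near 0 in the -dox libraries.

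The partners of the myosins were taken as a list of 25 genes with the double-headed class II heavy chains, of which 16 had a row and 14 were tested. In the +dox libraries 6 fell, 3 rose and 5 did not pass, with a median log2 fold change of -0.12. That is 42.9% lower and 21.4% higher, against 23.7% lower and 22.6% higher among all features. MYH9, the heavy chain of non-muscle myosin of the cell cortex and the cleavage furrow, had 636 and 624 CPM in the +dox libraries, against 1233, 1225 and 1226 CPM in the -dox libraries, a log2 difference of -0.96 (SE 0.04, adjusted p = 8.3e-11). MYH10, a second non-muscle heavy chain, averaged 101 ± 2.29 CPM with doxycycline (SD, n = 2) and 154 ± 1.63 CPM without (SD, n = 3) (-0.61, adjusted p = 9.2e-08). PPP1R12A, the targeting subunit of the phosphatase that acts on myosin light chains, fell by 0.48 on the log2 scale (adjusted p = 5.4e-06). MYH11, the smooth-muscle type heavy chain, rose to 77.4 and 82.5 CPM in the +dox libraries, against 58.9, 46.1 and 48.5 CPM in the -dox libraries (0.63, adjusted p = 2.8e-05). It was chosen once its values had been seen. MYH11 begins at 7557623 on chromosome 14, close to NDE1, which ends at 7555024 and rose as well (0.35, adjusted p = 0.00018). Whether the rises are separate was not tested.

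Of the 9 tested mitotic kinesins 33.3% rose and 33.3% fell, against 22.6% and 23.7% of all features, all by little. Their summed level was 1447 and 1468 CPM in the +dox libraries and 1473, 1499 and 1490 CPM in the -dox libraries, and no member changed by more than 0.27 on the log2 scale. KIF4B (chromosome 4, 1248685 to 1265751), listed in the reference with the synonym KIF4A, is the chromokinesin that works beside condensin on mitotic chromosomes. It had 354 and 360.0 CPM in the +dox libraries, against 402, 421 and 399 CPM in the -dox libraries, so the groups did not overlap (-0.19, SE 0.06, adjusted p = 0.014). KIFC1, the minus-end-directed kinesin that bundles spindle microtubules, had 45.8 and 46.9 CPM with and 57.7, 53.3 and 54.2 CPM without doxycycline (-0.25, SE 0.07, adjusted p = 0.0091). KIF18B, which shortens astral microtubules, had 32.8 and 33.9 CPM with and 41.3, 40.6 and 38.1 CPM without doxycycline (-0.27, SE 0.08, adjusted p = 0.016). KIF4B lost its call without -dox replicate 2 (-0.17, adjusted p = 0.081) and KIFC1 without +dox replicate 1 (-0.24, adjusted p = 0.069). KIF18B lost it without +dox replicate 1 (-0.24, adjusted p = 0.094), -dox replicate 1 (-0.24, adjusted p = 0.059) or -dox replicate 2 (-0.26, adjusted p = 0.051).

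The 3 mitotic kinesins that rose were KIF2C, KIF14 and KIF20A. KIF2C, a depolymerase at centromeres, had 169 and 168 CPM in the +dox libraries, against 153, 142 and 151 CPM in the -dox libraries (0.18, SE 0.06, adjusted p = 0.018). KIF14, a kinesin of the midbody, had 37.1 and 31.5 CPM with and 30.5, 27.2 and 27.7 CPM without doxycycline (0.27, SE 0.10, adjusted p = 0.043), with +dox replicate 3 close to -dox replicate 1. KIF20A, which brings the chromosomal passenger complex to the central spindle, had 279 and 293 CPM with and 246, 268 and 253 CPM without doxycycline (0.16, SE 0.06, adjusted p = 0.049). KIF20A overlaps an unnamed feature, XM_414544.3, which rose by 0.68 (adjusted p = 6.9e-07), and how reads of the shared stretch were counted is not stated. All 3 rises depended on single libraries. KIF2C did not pass without +dox replicate 1 (0.17, adjusted p = 0.062) or -dox replicate 2 (0.15, adjusted p = 0.053). KIF14 did not pass without +dox replicate 1 (0.14, adjusted p = 0.43), -dox replicate 2 (0.23, adjusted p = 0.13) or -dox replicate 3 (0.25, adjusted p = 0.093). KIF20A did not pass without +dox replicate 3 (0.13, adjusted p = 0.13) or without -dox replicate 1 (0.14, adjusted p = 0.15), replicate 2 (0.20, adjusted p = 0.054) or replicate 3 (0.16, adjusted p = 0.12).

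KIF11, the kinesin that pushes spindle poles apart, did not pass, at 329.9 and 336 CPM with and 356, 357 and 382 CPM without doxycycline (-0.13, SE 0.06, adjusted p = 0.090). KIF23, the kinesin of the centralspindlin complex, stood at 0.10 on the log2 scale (SE 0.05, adjusted p = 0.12), and KIF18A, which steadies chromosomes at the metaphase plate, 0.08 (SE 0.06, adjusted p = 0.33). KIF2B held 1 count in every library. None (0) of the 6 calls in this class held under all 12 alternatives. The higher count of 3 became 0 without -dox replicate 2 and 1 without -dox replicate 3. The lower count of 3 became 1 without -dox replicate 2. Among all features 2006 were higher and 2111 lower without -dox replicate 2, and 2171 were higher without -dox replicate 3. Under library size alone 0 were higher and 4 lower, against 1272 higher and 4119 lower features in all.

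The other kinesins gave 5 falls (41.7%, against 23.7% of all features) and 0 rises (22.6% of all features) of 12 tested, with a median log2 fold change of -0.18. At an unadjusted p under 0.05 the edgeR test gave 0 rises as well. Of all features 53.1% passed that in either direction, and the share for rises alone was not counted. DESeq2 on all features gave 0 rises at an adjusted p of 0.05, in a setting where 1191 features were higher and 3046 lower. Their summed level was 472 and 481 CPM in the +dox libraries and 552, 534 and 547 CPM in the -dox libraries. KIF3A and KIF3B, which pair in the heterotrimeric kinesin of intraflagellar and organelle transport, both fell. KIF3B (chromosome 20, 10492513 to 10501281) had 17.1 and 19.4 CPM with and 32.0, 31.1 and 27.4 CPM without doxycycline, with no overlap (-0.73, SE 0.12, adjusted p = 8.5e-05). KIF3A (chromosome 13, 16281845 to 16300804) had 31.8 and 32.0 CPM with and 42.0, 38.2 and 44.0 CPM without doxycycline (-0.38, SE 0.09, adjusted p = 0.0025), and here too the groups were apart. KIF3C, the alternative partner of KIF3A in other vertebrates, held 1 or 2 counts in each library.

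KIF24, a kinesin that restrains cilium assembly, had 11.0 and 13.8 CPM in the +dox libraries, against 18.4, 17.6 and 16.2 CPM in the -dox libraries (-0.50, SE 0.14, adjusted p = 0.0098), and -0.34 (adjusted p = 0.12) without +dox replicate 1. KIF5B, the ubiquitous heavy chain of conventional kinesin, had 157 and 149.9 CPM with and 181, 179 and 179.6 CPM without doxycycline (-0.23, SE 0.06, adjusted p = 0.0059). KIF2A, a microtubule depolymerase, had 53.5 and 55.7 CPM with and 63.6, 62.6 and 63.1 CPM without doxycycline (-0.21, SE 0.06, adjusted p = 0.014), with the call lost when +dox replicate 1 was left out (-0.18, adjusted p = 0.13) or +dox replicate 3 was (-0.24, adjusted p = 0.05 when rounded, just past the threshold). Leaving out a +dox library leaves no spread within that group, so no count of lower kinesins is given for that setting.

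Among those that did not pass, KIF7, a ciliary regulator of Hedgehog signalling, had 36.2 and 39.3 CPM with and 38.7, 39.4 and 40.1 CPM without doxycycline (-0.06, SE 0.08, adjusted p = 0.57), with +dox replicate 3 inside the -dox range. KIF13A, an endosomal kinesin, and KIF1B, which carries mitochondria and synaptic vesicle precursors, had -0.14 (SE 0.07) and 0.14 (SE 0.08), with adjusted p of 0.12 and 0.15. KIF1BP is met by the rule through its name but encodes a protein that binds kinesins and is no motor (-0.16, SE 0.10, adjusted p = 0.22), and without it 5 of 11 fell. KIF9, KIF26B and KIF27 had log2 fold changes of -0.04, 0.04 and -0.32 with SEs of 0.25, 0.18 and 0.39, so their intervals are wide. KIF6, KIF13B, KIF16B, KIF26A and KIFC2, at 1 to 9 counts in each library, were not tested.

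Of the 11 dynein and dynactin genes 54.5% changed, against 46.3% of all features, a share near the background. Of the 8 dynein genes 3 fell, 1 rose and 4 did not pass, and of the 3 dynactin genes 2 rose and 1 did not pass. For dynein that is 37.5% lower and 12.5% higher, against 23.7% lower and 22.6% higher among all features. For dynactin it is 66.7% higher, of only 3 genes. DYNC2H1 (chromosome 1, 181452597 to 181589259), the heavy chain of the dynein that returns cargo from the ciliary tip, had 12.7 and 12.8 CPM in the +dox libraries, against 22.2, 17.4 and 21.6 CPM in the -dox libraries. These groups lay apart, at -0.68 (SE 0.14, adjusted p = 0.0010). Its light intermediate chain DYNC2LI1 had 19.4 and 20.6 CPM with and 21.7, 26.2 and 23.0 CPM without doxycycline and did not pass (-0.24, SE 0.12, adjusted p = 0.12).

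For the dynein of the cytoplasm, DYNC1I2 (chromosome 7, 17460827 to 17484999), the intermediate chain that binds dynactin, had 85.6 and 85.2 CPM with doxycycline and 109, 105 and 109.6 CPM without doxycycline (-0.34, SE 0.05, adjusted p = 7.7e-05). The light intermediate chains DYNC1LI1, at 270.2 and 256 CPM with and 268, 274 and 285 CPM without doxycycline, and DYNC1LI2, at 34.7 and 33.8 CPM with and 39.4, 38.4 and 40.6 CPM without doxycycline, did not pass (-0.07, adjusted p = 0.41, and -0.20, adjusted p = 0.054). DYNLRB1, the roadblock light chain, had 101 and 94.4 CPM with and 108, 112 and 127 CPM without doxycycline (-0.23, SE 0.07, adjusted p = 0.010), and -0.18 (adjusted p = 0.11) without +dox replicate 3. DYNLT1, the Tctex-type light chain, had -0.13 (SE 0.11, adjusted p = 0.35).

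DYNLL1 (chromosome 15, 9288061 to 9289672), a light chain that also serves many partners outside dynein, rose. It had 63.8 and 70.4 CPM in the +dox libraries, against 35.8, 47.6 and 42.0 CPM in the -dox libraries, with no overlap (0.69, SE 0.10, adjusted p = 3.1e-05). The features on both sides rose as well, COQ5 by 0.54 (adjusted p = 0.00013) and GATC by 0.26 (adjusted p = 0.026), and whether the rises are separate was not tested. DCTN5 (chromosome 14, 6876519 to 6883294), a subunit of the pointed end of dynactin, had 72.6 and 76.9 CPM with and 50.5, 54.2 and 57.6 CPM without doxycycline (0.47, SE 0.07, adjusted p = 4.9e-05). Its nearest neighbour PALB2, 57 bases away, did not pass (-0.21, adjusted p = 0.080). PLK1, on the other side at 765 bases, fell by 0.16 on the log2 scale (adjusted p = 0.042). DCTN3, a subunit of the dynactin shoulder, had 36.2 and 39.3 CPM with and 28.8, 30.0 and 31.6 CPM without doxycycline (0.33, SE 0.09, adjusted p = 0.0072), and 0.27 (adjusted p = 0.069) without +dox replicate 3. DCTN4, at the pointed end too, had 119.7 and 130.3 CPM with and 137, 147 and 124 CPM without doxycycline, overlapping groups, and did not pass (-0.12, SE 0.07, adjusted p = 0.15), though it passed as lower without -dox replicate 3 (-0.18, adjusted p = 0.019).

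**Figure D4:**
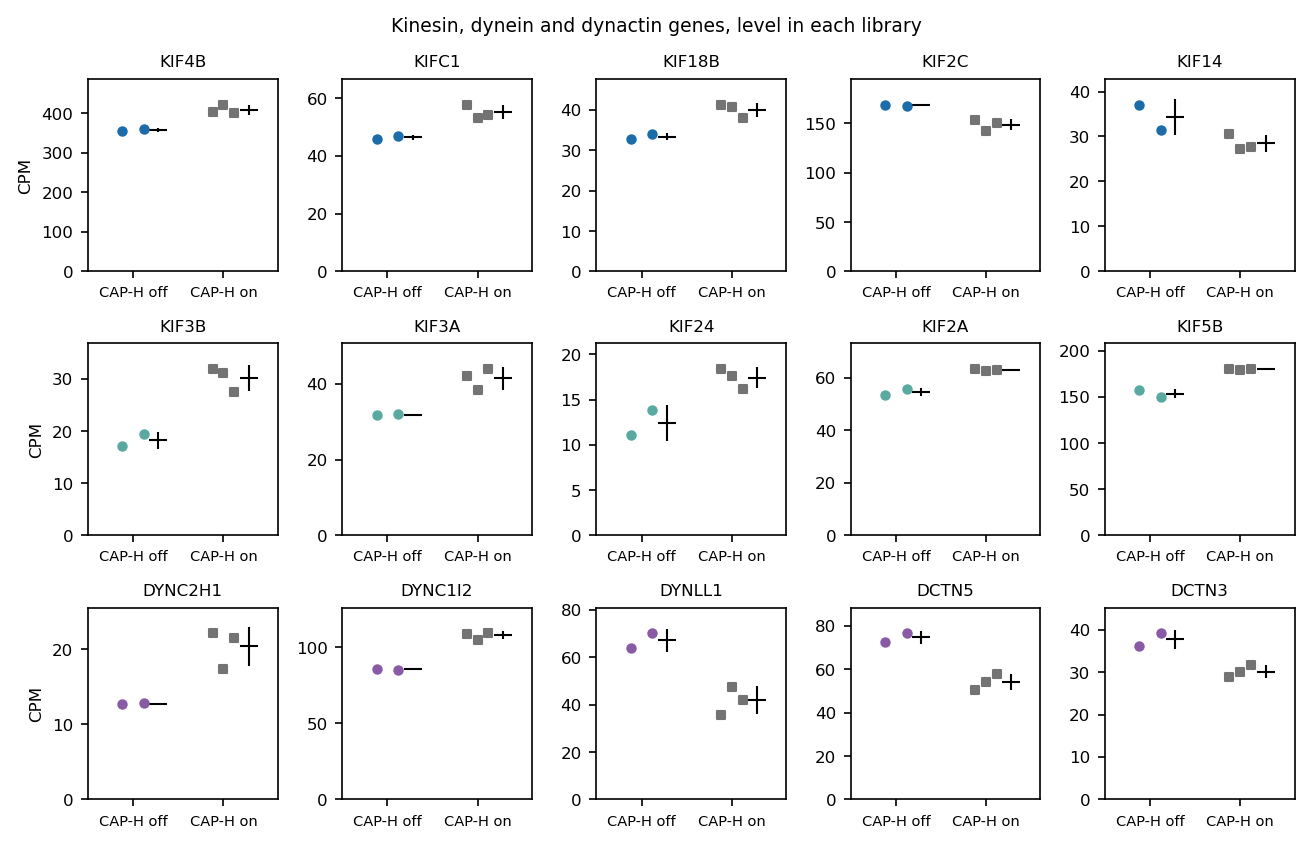
CPM of 15 kinesin, dynein and dynactin genes in each library, with points for libraries and the bar at the right of each group for mean and SD (n = 2 with doxycycline, CAP-H off, n = 3 without, CAP-H on). KIF3B, DYNC2H1 and DYNC1I2 are lower and DYNLL1 and DCTN5 higher in both +dox libraries.

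Partners of the microtubule motors, a list of 37 genes with adaptors, light chains, dynein regulators and spindle factors, had 24 with a row and 23 tested, of which 8 fell, 3 rose and 12 did not pass (median log2 fold change -0.02). The share that changed, 47.8%, is close to the 46.3% of all features, with 34.8% lower and 13.0% higher against 23.7% and 22.6% of all features. BICD2, the adaptor that joins dynein and dynactin to cargo, averaged 82.8 ± 1.79 CPM in the +dox libraries and 137 ± 7.25 CPM in the -dox libraries (SD, n = 2 and n = 3; -0.73, SE 0.06, adjusted p = 5.8e-08). NUMA1, which anchors dynein at spindle poles and cortex, averaged 109 ± 4.65 CPM with doxycycline and 161 ± 9.19 CPM without (-0.56, adjusted p = 2.1e-06). NDE1, a dynein regulator, rose to 197 ± 1.36 CPM with doxycycline, against 155 ± 1.25 CPM without doxycycline (0.35, adjusted p = 0.00018). It lies close to MYH11, which rose as well, and whether the rises are separate was not tested. CENPE, a kinetochore kinesin outside the naming rule, had 160.1 ± 5.71 CPM with doxycycline and 162 ± 1.59 CPM without (-0.02, adjusted p = 0.82) and was chosen as a kinesin with its values already seen. Tubulins and their regulators, 37 listed and 17 tested, gave 4 rises, 4 falls and 9 that did not pass, with a median log2 fold change of -0.12. That is 47.1% changed, again close to the background of 46.3%. Among these TUBB4B, at 1284 and 1296 CPM with and 938, 1003 and 1046 CPM without doxycycline (0.37, adjusted p = 9.6e-06), the tubulin ligase gene TTL (0.49, adjusted p = 1.1e-05) and STMN1, a microtubule destabiliser (0.39, adjusted p = 4.3e-05), rose, and TUBB4B overlaps FAM166A.

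**Figure D5:**
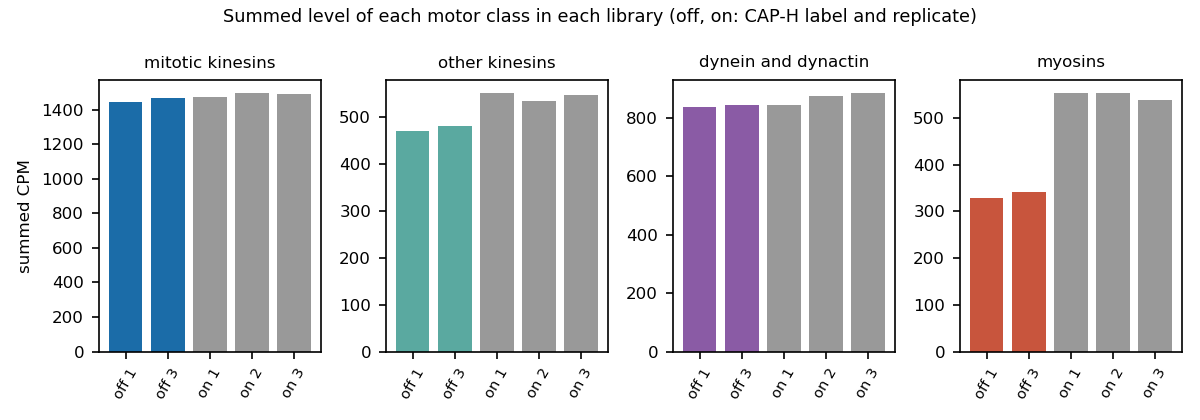
Summed CPM of the members of each class in each library (bars from 0; off is +dox, on is -dox, and the number is the replicate). The myosin sum is 328 and 342 CPM in the +dox libraries against 538 to 554 CPM in the -dox libraries. Within it MYO1C alone has a mean of 125 CPM with and 271 CPM without doxycycline, so this sum leans on 1 gene. The mitotic kinesin sum is 1447 and 1468 CPM with and 1473 to 1499 CPM without doxycycline.

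Levels of different genes were set side by side only per kilobase of the genomic span in the files, introns included, so a gene with long introns reads low whatever its mRNA level. KIFC1 had the highest density of the mitotic kinesins, at 57.6 ± 0.97 CPM per kb in the +dox libraries (SD, n = 2) and 68.4 ± 2.95 CPM per kb in the -dox libraries (SD, n = 3), over a span of only 0.805 kb. A short span raises a density, and whether this span covers the whole transcript was not checked, so the rank of KIFC1 is uncertain. KIF20A followed at 29.0 ± 1.0 CPM per kb with and 25.9 ± 1.14 without doxycycline. KIF4B stood at 20.9 ± 0.24 CPM per kb with and 23.9 ± 0.70 without, and KIF11 at 20.7 ± 0.26 with and 22.7 ± 0.91 without, and their ranges overlapped in the -dox libraries. KIF5B, at 4.69 ± 0.16 CPM per kb with and 5.50 ± 0.03 without, led the other kinesins ahead of KIF7, at 4.05 ± 0.24 with and 4.23 ± 0.08 without. DYNLL1 led dynein and dynactin at 41.6 ± 2.93 CPM per kb with and 25.9 ± 3.66 without. Among myosins MYO1G led at 11.4 ± 0.01 CPM per kb with and 14.0 ± 0.35 without, before MYO1C at 2.46 ± 0.15 with and 5.34 ± 0.12 without. MYO1H stood last of the 9 tested myosins in the -dox libraries and 6th in the +dox libraries.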

How the data were processed

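The authors deposited whole-number counts per RefSeq transcript on the chicken build galGal4, per the file headers, with 17036 rows. TopHat2 2.0.8b and edgeR 3.2.3 stand in the submitters' processing notes, beside Bowtie and FastQC. For the counter and strand setting, nothing is given in the sources used here. The smallest deposited count was 1, so a feature without reads was taken to hold 1. The authors' deposited comparison table holds log2 fold changes, p-values and a likelihood ratio, the last a score that was not used.

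Rows with the same interval or identifier and equal counts were reduced to 16143 features, of which 2095 overlap another. Symbols came from RefSeq (assembly GRCg7b), matched on the accession without version, and 8905 rows (52.3%) received one. Coordinates are galGal4. The test was run on the counts in R 4.3.3 with edgeR 4.0.16 (filterByExpr, TMM, glmQLFit, glmQLFTest), with no covariate, over all 5 libraries. The script was tested on simulated data. TMM factors were 0.928 and 0.927 in +dox libraries and 1.04 to 1.07 in -dox libraries. SE is the fold change over the root of F. Alternatives included DESeq2 1.42.0. Totals ran from 12199522 to 22533003 counts per library, and the precision also rests on the spread between only 2 +dox and 3 -dox libraries.

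Members and lists were chosen with earlier results of these data known. Given in full were, per class, up to 4 called rises and 4 called falls with groups apart, the 2 members with most CPM per kilobase, KIF11 and KIF5B (DYNC1H1 and DCTN1 of the same rule had no row), and 3 partners of lowest p per list. Other members have shorter values. KIFBP, KBP and KIAA1279 were dropped from the partners as names also used for KIF1BP, though KBP is another gene in the reference. Values of 1 tested member are not reported here.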

Additional observations from a re-analysis of the deposited data

How the results depend on the processing

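Of the 41 tested members, 14 kept direction and call under all 12 alternatives, among them 12 of the 24 called. With library size alone 3 members were higher and 25 lower, against 1272 higher and 4119 lower features in all. By class 0 mitotic kinesins and 1 myosin, MYO1H, were higher, and 8 other kinesins and 8 dynein and dynactin genes were lower. MYO1H could enter that setting only by being higher with doxycycline. With no filter 3 members, 0 mitotic kinesins and 1 myosin were higher and 5 dynein and dynactin genes lower, against 1533 higher and 2866 lower features in all. DESeq2 on all features gave 3 members, 0 mitotic kinesins and 1 myosin higher and 7 dynein and dynactin genes lower, against 1191 higher and 3046 lower features in all. Those 2 settings let features listed at 1 into the scaling. DESeq2 on the filtered features, chosen after seeing the data, gave 7 members higher and 15 lower, against 2036 higher and 2119 lower features in all. In a likelihood ratio test with the replicate block 5 members were higher and 12 lower. By class 0 mitotic kinesins were higher, and 1 mitotic kinesin and 3 other kinesins were lower. Among all features 1969 were then higher and 1949 lower. Whether same-numbered libraries belong together was not settled. Their deviations correlated at -0.01 and -0.03. With only 2 +dox libraries the deviations of these are each other's negative, so the correlations cannot decide it.

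Leaving out each -dox library in turn gave 4 to 7 members higher and 14 to 17 lower. It gave 0 to 2 mitotic kinesins higher and 1 to 3 lower, 5 other kinesins lower, and 1 to 2 myosins higher. MYO1H is 1 of these myosins each time, and it could enter only by being higher with doxycycline. Among all features 2006 to 2171 were then higher and 2111 to 2277 lower. Signs turned only in members that were small or not called. With library size alone KIF2C came to -0.00017, KIF20A to -0.02, KIF23 to -0.08, KIF18A to -0.11, KIF1B to -0.04 and KIF26B to -0.14. DESeq2 gave -0.04 for KIF23, -0.06 for KIF18A and -0.09 for KIF26B, and no filter gave -0.02 for KIF18A and -0.05 for KIF26B. KIF9 came to 0.10 with the replicate block and ranged from -0.11 to 0.10 over libraries left out, and KIF26B from -0.02 to 0.12. With library size alone the median of all features shifted by -0.18. Members that turned there had values from 0.04 (KIF26B) to 0.18 (KIF2C) in the main test. Apart from that shift, no cause of the turns was tested. The comparison of transcript length with span was not run, since no transcript lengths were at hand. The 11 members that were not tested held at most 10 counts in a library, so no change was detectable in them at this depth.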

Other observations

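The authors' deposited table of called transcripts, whose direction is not stated there, lists 19 of the members. All 19 were called here with the same sign, 15 lower and 4 higher. Both results rest on libraries of this series, so the match is no independent support. The 4 higher include MYO1H, which passed the filter here only through the +dox libraries. They also include MYO3AL, whose call here rested on single libraries. In the authors' deposited table MYO1C has a log2 fold change of -1.19, MYO1F -1.39, MYO1D -0.98 and MYO5A -0.76, and MYO1H has 3.37. The same authors' deposited table gives -0.87 for DYNC2H1, -0.80 for KIF3B and 0.70 for DYNLL1, and among the mitotic kinesins it lists KIFC1 (-0.37) and KIF18B (-0.35), with none of those that rose here.

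Some motor genes that changed lie beside features that moved the other way, and others beside features that moved with them. KIF3B fell beside POFUT1, which lies 207 bases away and rose by 0.55 (adjusted p = 9.9e-06). MYO1G fell beside LOC420411, 758 bases away, which rose by 0.59 (adjusted p = 1.1e-06). DYNC2H1 fell, and DCUN1D5, 205 bases away, had 0.18 (adjusted p = 0.084). The neighbours of MYO1C were YWHAE, which fell by 0.32 on the log2 scale (adjusted p = 0.00055), and XM_001234812.2, which rose by 0.17 (adjusted p = 0.048). These neighbours were chosen after their values were seen, and the other neighbours are not listed.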
